A study of Homo sapiens with 5 samples.

Results

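In HT1376 cells given CPI-0209, the chromatin called for EZH2 and the chromatin called for H3K27me3 were compared domain by domain. HT1376 cells are an established line from a human bladder carcinoma, and CPI-0209 is a small-molecule inhibitor of EZH2. Overlapping intervals of the EZH2 list and of the H3K27me3 list were merged into domains, and domains of both lists that shared at least 1 bp were joined. This gave 27913 joined domains, against 29087 in the vehicle cells and 33706 when all 4 ChIP lists of the series were joined. Of the 27913, 10616 held both EZH2 and H3K27me3, 16146 held EZH2 only and 1151 held H3K27me3 only.

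The study set HT1376 cells kept in DMSO beside cells kept in 250 nM CPI-0209, both for 8 days, and immunoprecipitated EZH2 and H3K27me3 from formaldehyde-fixed chromatin. The protocol also names a 4 day treatment and an H3K27 acetylation antibody, and neither was analysed here. Each of the 4 ChIP groups, EZH2 and H3K27me3 in CPI-0209 cells and the same pair in DMSO cells, has 1 library, and 1 input library of the series was not used. No allele, transgene or second cell line enters these groups, so all values describe a single cell line.

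Polycomb repressive complex 2 (PRC2), whose catalytic subunit is EZH2, adds methyl groups to lysine 27 of histone H3. The trimethylated form, H3K27me3, is bound by the PRC2 subunit EED and by CBX proteins of Polycomb repressive complex 1 (PRC1), and it marks silenced developmental genes in most mammalian cells. A catalytic inhibitor blocks the methyl transfer, so that the enzyme and its product can be mapped apart from each other. H3K27me3 that is left after such treatment is called residual here.

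The promoters of 4 genes are shown as examples of the sequence at gene starts of each class. They are the 300 bases from 250 before to 50 after the RefSeq start, 5′ to 3′ on the gene's strand, in GRCh38.p14 (the hg38 assembly), with each CG dinucleotide in capitals. COL4A2, which encodes a chain of basement membrane collagen, stood for domains with both (chr13:110307034-110307333, plus strand). NOTCH1, a receptor of the Notch pathway, stood for EZH2 only (chr9:136545999-136546298, minus strand). KRT82, a hair keratin (chr12:52406286-52406585, minus strand), and PAX4, a pancreatic islet transcription factor (chr7:127618093-127618392, minus strand), stood for H3K27me3 only.
COL4A2: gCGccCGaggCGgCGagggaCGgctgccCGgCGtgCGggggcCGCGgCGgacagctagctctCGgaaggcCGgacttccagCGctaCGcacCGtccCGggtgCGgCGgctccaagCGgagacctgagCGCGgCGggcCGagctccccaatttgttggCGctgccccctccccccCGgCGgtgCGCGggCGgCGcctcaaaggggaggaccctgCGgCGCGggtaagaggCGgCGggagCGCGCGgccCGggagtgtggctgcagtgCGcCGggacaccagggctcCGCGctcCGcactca
NOTCH1: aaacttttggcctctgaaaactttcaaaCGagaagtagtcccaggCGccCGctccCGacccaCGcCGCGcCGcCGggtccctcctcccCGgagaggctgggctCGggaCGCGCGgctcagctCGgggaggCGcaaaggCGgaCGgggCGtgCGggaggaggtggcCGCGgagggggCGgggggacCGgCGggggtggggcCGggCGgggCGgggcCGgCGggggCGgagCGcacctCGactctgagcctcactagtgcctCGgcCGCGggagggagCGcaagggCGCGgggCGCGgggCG
KRT82: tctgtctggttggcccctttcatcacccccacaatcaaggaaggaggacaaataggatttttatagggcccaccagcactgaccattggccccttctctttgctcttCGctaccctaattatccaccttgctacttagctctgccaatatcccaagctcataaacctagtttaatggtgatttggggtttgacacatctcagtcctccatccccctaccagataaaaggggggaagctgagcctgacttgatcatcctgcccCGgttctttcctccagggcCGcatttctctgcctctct
PAX4: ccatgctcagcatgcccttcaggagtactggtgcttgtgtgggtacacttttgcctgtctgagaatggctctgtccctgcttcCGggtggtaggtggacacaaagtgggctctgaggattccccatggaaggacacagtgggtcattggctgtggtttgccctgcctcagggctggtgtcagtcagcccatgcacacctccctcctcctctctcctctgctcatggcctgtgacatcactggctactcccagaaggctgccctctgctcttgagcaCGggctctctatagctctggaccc
These promoters held 45, 42, 3 and 2 CG dinucleotides in the order shown, and the counts over all genes are given with the gene starts.

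One property of the lists bears on every value. Each of the 4 lists ran through the chromosomes from 1 to X and then began again at chromosome 1, so that it held 2 complete sets of intervals back to back, and within each set neighbouring intervals were never closer than 800 bp. The sources used here do not say what the sets stand for. In CPI-0209 cells the first EZH2 set held 15096 intervals over 136.5 Mb and the second 28426 over 204.7 Mb, with 50.8% of the covered length in both sets. The first H3K27me3 set held 15850 intervals over 113.4 Mb and the second 3015 over 15.1 Mb, and 97.5% of the second set's length lay within the first. The merged lists covered 226.3 Mb for EZH2 and 113.8 Mb for H3K27me3. The lists hold no score, count or depth, and an interval is a call made separately in each library, so a stretch without an interval is a stretch not called. Loss of the mark in some of the cells and thinning of the mark in all cells cannot be told apart. With 1 library per group there is no replicate check and no test, and the ranges in brackets are exact (Clopper-Pearson) 95% binomial limits that cover counting only. Neighbouring domains are not independent.

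In the merged lists most residual H3K27me3 lay with EZH2, and most EZH2 domains had no H3K27me3. Of 15838 merged H3K27me3 domains in CPI-0209 cells, 14687 met an EZH2 domain (92.7%, 92.3 to 93.1%). Of 27406 merged EZH2 domains, 11260 met H3K27me3 (41.1%, 40.5 to 41.7%). In DMSO cells the shares stood the other way round, with 37.5% of H3K27me3 domains on EZH2 and 58.2% of EZH2 domains on H3K27me3. By length, 92.5% of H3K27me3 lay under EZH2 in CPI-0209 cells and 44.3% did in DMSO cells. The share of H3K27me3 domains with EZH2 was 74.9% between the first sets and 98.3% between the second sets. The share of EZH2 domains with H3K27me3 depended on the sets far more, at 67.3% and 7.11%. Between the first sets most EZH2 domains thus did carry the mark. With either EZH2 set against either H3K27me3 set, the H3K27me3 share was the higher of the pair. That order turned when the EZH2 list was shortened to its widest intervals so that it covered the same length as the H3K27me3 list, with 41.8% of H3K27me3 domains on EZH2 and 84.0% of EZH2 domains on H3K27me3.

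The classes differed in width. Joined domains with both had a median width of 9.4 kb (quartiles 5.6 and 17.2 kb) and reached 397.2 kb. EZH2-only domains had a median of 3.2 kb (2 and 5.2 kb) and reached 105.4 kb, and H3K27me3-only domains had a median of 2.8 kb (1.8 and 4.2 kb) and reached 28.2 kb. By number EZH2-only domains made up 57.8% (57.3 to 58.4%) of the joined domains, domains with both 38.0% (37.5 to 38.6%) and H3K27me3-only domains 4.12% (3.89 to 4.36%). By length the order of the first pair turned, since domains with both spanned 160.0 Mb, EZH2-only domains 71.0 Mb and H3K27me3-only domains 3.79 Mb. In DMSO cells H3K27me3-only domains were the most frequent class, with 13532 of 29087 joined domains (46.5%) and 110.4 Mb.

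Wide EZH2 domains carried residual H3K27me3 far more often than narrow ones. H3K27me3 was called in 9.04% (8.16 to 9.98%) of 3950 EZH2 domains under 2 kb and in 22.7% (21.9 to 23.5%) of 10479 domains of 2 to 5 kb. The share was 53.0% at 5 to 10 kb, 74.1% at 10 to 20 kb and 89.7% at 20 to 40 kb. It reached 95.2% (93.3 to 96.7%) in the 651 domains of 40 kb or wider. A wide domain has more positions at which 1 bp can overlap, so the share of EZH2 length under the mark was taken as well. That share rose over the same width classes from 7.44% to 72.7%. In DMSO cells the share of EZH2 domains with the mark also rose with width, from 12.6% under 2 kb to 91.5% at 40 kb or wider.

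**Figure D1:**
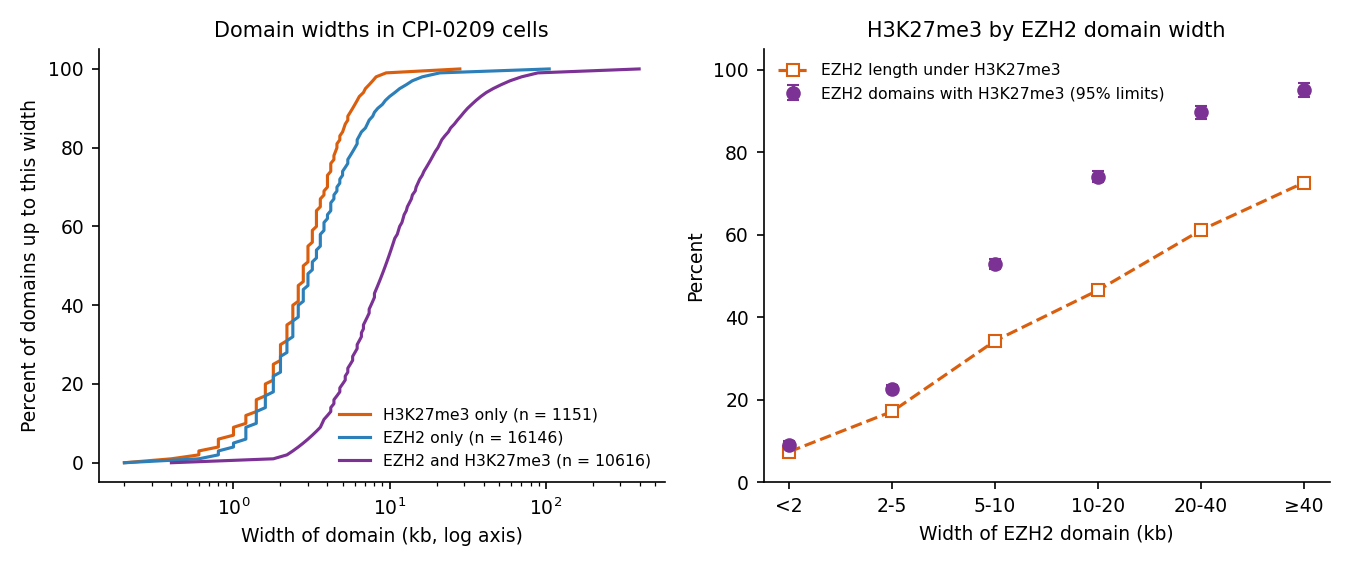
Left, cumulative percent of joined domains (y axis) up to each width in kb (x axis, log scale) for the 3 classes in CPI-0209 cells. Right, percent of EZH2 domains with H3K27me3 (circles, bars are exact 95% binomial limits) and percent of EZH2 length under H3K27me3 (squares) by EZH2 domain width. The curve of domains with both lies to the right of the others, and both series on the right rise with width, to 95.2% and 72.7%.

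In CPI-0209 cells, stretches of EZH2 called in both sets of the EZH2 list carried the mark more often than stretches called in 1 set. Of 114.9 Mb of EZH2 called in both sets, 72.8% lay under H3K27me3, and of 111.4 Mb called in 1 set, 19.4% did. The order was the reverse in DMSO cells, with 64.1% of 34.4 Mb called in both sets and 73.9% of 159.1 Mb called in 1 set. In CPI-0209 cells EZH2 of both sets was present in 76.5% of joined domains with both and in 23.6% of EZH2-only domains. A further 71.3% of EZH2-only domains came from the second EZH2 set alone, and those had a median width of 2.8 kb. On the side of the mark, 99.9% of the 14.7 Mb of H3K27me3 called in both sets and 91.4% of the 99.1 Mb called in 1 set lay under EZH2.

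Most H3K27me3 domains that met EZH2 in CPI-0209 cells sat wholly inside it. Of the 14687 H3K27me3 domains that met EZH2, 10647 lay wholly within it (72.5%, 71.8 to 73.2%), against 8.66% (8.05 to 9.29%) in DMSO cells. Of the 11260 EZH2 domains with the mark, 865 lay wholly under it (7.68%, 7.20 to 8.19%), against 74.4% (73.5 to 75.2%) in DMSO cells. EZH2 domains mostly lay within H3K27me3 domains in DMSO cells, and H3K27me3 domains mostly lay within EZH2 domains in CPI-0209 cells. The 2 sets taken apart gave the same order. H3K27me3 domains wholly within EZH2 were 53.9% and 94.6% in CPI-0209 cells for the first and second sets, against 5.44% and 9.68% in DMSO cells. EZH2 domains wholly under the mark were 16.1% and 0.791% in CPI-0209 cells, against 74.97% and 73.1% in DMSO cells. In each condition the list that mostly lay within the other was also the shorter. H3K27me3 covered 113.8 Mb and EZH2 226.3 Mb in CPI-0209 cells, against 315.1 and 193.4 Mb in DMSO cells. With the EZH2 list shortened to the H3K27me3 length, 41.8% of H3K27me3 domains met EZH2 and 80.0% of these lay wholly within it. The part of list length in this order was not tested.

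The mark often stopped short of the edges of EZH2 domains. In 5485 of the 11260 EZH2 domains with the mark (48.7%, 47.8 to 49.6%) it reached neither edge, in 4582 (40.7%) it reached 1 edge, and in 328 (2.91%) it reached both edges with a gap inside. In DMSO cells the mark reached neither edge in 2.62% of 10840 domains. The median EZH2 domain with the mark had 68.8% of its length under it, while the median in DMSO cells was 100%. Between the first sets of CPI-0209 cells 31.2% of domains had the mark at neither edge, and between the second sets 86.7%.

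In most wide EZH2 domains the H3K27me3 calls lay in more than 1 piece, with any uncalled gap counted as a break. Gaps within a set can be as short as 800 bp. Pieces were not counted again with gaps under 5 kb joined, so these counts include breaks at short gaps. Of the 2035 EZH2 domains of 20 kb or wider that held H3K27me3, 61.2% (59.0 to 63.3%) had it at neither edge and 36.7% (34.6 to 38.8%) had it in 3 or more pieces, against 4.51% and 0.967% of 1862 such domains in DMSO cells. It lay in a single piece in 577 of the 2035 (28.4%), against 91.6% in DMSO cells. The pieces in these wide domains had a median width of 8.6 kb, and 81.5% of the 4848 pieces touched no edge. Under 20 kb, 87.7% of the EZH2 domains with the mark had it in a single piece. Counted over joined domains, 2140 of the 10616 with both (20.2%) had 1 EZH2 domain around 2 or more H3K27me3 domains, and 246 (2.32%) had 1 H3K27me3 domain across 2 or more EZH2 domains. In DMSO cells these shares were 1.92% and 21.6%. The most divided was the 208 kb EZH2 domain at SSBP3, a gene for a single-stranded DNA binding protein on chromosome 1, with 11 H3K27me3 domains.

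From edge to centre the coverage rose, in wide domains mostly over the first step. EZH2 domains of 20 kb or wider with the mark were cut into 10 bins of equal width and folded at the centre, which leaves 5 steps. H3K27me3 covered 47.8% of the outermost bins, then 70.0%, 75.2%, 77.8% and, at the centre, 78.1%. In domains of 4 to 10 kb it rose from 37.3% to 83.0%. In DMSO cells the same profile of wide domains ran from 89.1% at the edge to 97.8% at the centre. In kilobases, over the 4458 edges of all 2229 EZH2 domains of 20 kb or wider in CPI-0209 cells, the positions outside were first counted only where no other EZH2 domain lay. Of these EZH2-free positions the mark covered 3.38% at 5 to 10 kb outside, 4.76% at 1 to 5 kb and 10.9% in the first kb. Inside, it covered 28.8% of the first kb, 54.5% at 1 to 5 kb and 67.6% at 5 to 10 kb. The corresponding DMSO values, over 4092 edges, were 41.3%, 50.05% and 63.7% outside and 77.4%, 83.5% and 87.2% inside. A neighbouring EZH2 domain covered 56.5% of all positions at 5 to 10 kb outside in CPI-0209 cells, 42.0% at 1 to 5 kb and 5.49% in the first kb. With these kept, a choice added after seeing the data, the mark covered 33.5%, 22.5% and 12.1% of all outside positions in CPI-0209 cells and 62.7%, 63.0% and 64.3% in DMSO cells.

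**Figure D2:**
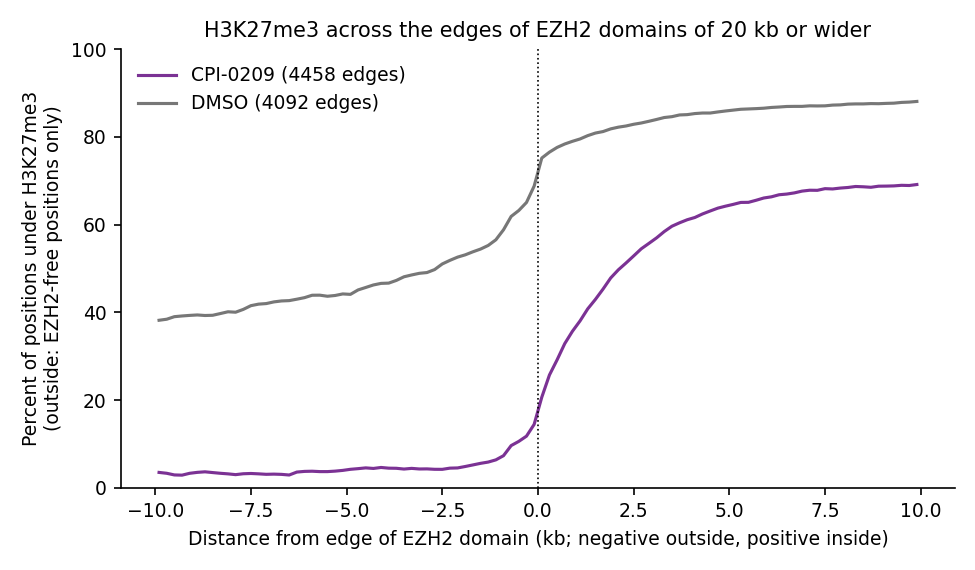
Percent of positions under H3K27me3 (y axis) by distance in kb from the edge of EZH2 domains of 20 kb or wider (x axis, negative outside, positive inside, dotted line at the edge), in CPI-0209 and DMSO cells. Outside, only positions free of any EZH2 domain are counted. In CPI-0209 cells the mark covered 3.38% of EZH2-free positions at 5 to 10 kb outside and 67.6% of all positions at 5 to 10 kb inside, and the DMSO line lies above it throughout.

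Little of the mark was found past EZH2. In CPI-0209 cells 8.51 Mb of the 113.8 Mb of H3K27me3 lay beyond EZH2 (7.48%), against 175.5 Mb of 315.1 Mb in DMSO cells (55.7%). Of the 8.51 Mb, 4.73 Mb belonged to domains with both and 3.79 Mb to H3K27me3-only domains. The share beyond EZH2 was 22.1% between the first sets and 1.34% between the second sets, and 37.4% with the shortened EZH2 list. Where H3K27me3 domains reached past EZH2, in 4040 cases, they did so by a median of 0.8 kb. Stretches on the outer side of an EZH2 domain numbered 3878, with a median of 0.6 kb and a longest of 10.4 kb, and only 59 of them reached 5 kb. In DMSO cells 11419 such stretches had a median of 2.6 kb and a longest of 66 kb, and 3528 reached 5 kb. Stretches of the mark that bridged neighbouring EZH2 domains numbered 619 in CPI-0209 cells, with a median of 0.8 kb.

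The longest stretches beyond EZH2 in domains that hold a protein-coding gene start were a few kb long. At ZBTB8B, a zinc finger gene on chromosome 1, a 21 kb H3K27me3 domain ran 8.4 kb past an EZH2 domain of 12.6 kb. At BSN, which encodes the presynaptic protein Bassoon, a 7.4 kb stretch bridged EZH2 domains on either side. At CLYBL, which encodes citramalyl-CoA lyase, a 7.2 kb H3K27me3 domain shared 0.2 kb with EZH2 and lay 7 kb beyond it, so that the gene start had EZH2 only. The next were NXNL2 (6.2 kb), EXOC2 (6 kb), SRARP (5.6 kb), GALNT16 (5.6 kb) and DOCK3 (5.6 kb).

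H3K27me3-only domains lay near EZH2 without overlapping it. Their median distance to the nearest EZH2 domain was 7.4 kb (quartiles 2.4 and 20.6 kb), and 663 of 1151 (57.6%, 54.7 to 60.5%) lay within 10 kb. In DMSO cells the median distance was 32.7 kb, and 22.4% of H3K27me3-only domains lay within 10 kb of EZH2. The DMSO list held fewer EZH2 domains, 18639 against 27406, and the distances were not adjusted for this. EZH2-only domains of CPI-0209 cells lay a median of 62.9 kb from the nearest H3K27me3, with 18.3% of them within 10 kb. H3K27me3-only domains came almost wholly from the first set of the list (97.0%), and 7 of the 1151 held H3K27me3 of both sets.

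The classes had different states in DMSO cells. Of the joined domains with both, 81.9% (81.2 to 82.7%) met both EZH2 and H3K27me3 in the DMSO lists and 16.9% met H3K27me3 only. H3K27me3-only domains met H3K27me3 only in 73.6% and both in 22.6%, and 3.82% met neither. EZH2-only domains were mixed, with 37.1% on EZH2 only, 32.5% on neither, 21.1% on H3K27me3 only and 9.33% on both. By length, 99.3% of the EZH2 that carried the mark in CPI-0209 cells lay under H3K27me3 in DMSO cells. The EZH2 without the mark in the same joined domains, 50.02 Mb, lay under DMSO H3K27me3 in 83.0% of its length. For EZH2-only domains the figure was 28.3%. The unmarked rims and gaps of domains with both had thus mostly been called for H3K27me3 in the DMSO library, and the EZH2-only domains mostly had not.

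The widest domains with both at protein-coding genes show these layouts. At COL4A2 the joined domain was 276.2 kb (chr13:110254001-110530200), of which 275.2 kb was EZH2, and 7 H3K27me3 domains covered 81.1% of the EZH2 length. At C1QTNF8 on chromosome 16, a gene of the C1q and TNF related family, the mark covered 97.3% of 266.6 kb of EZH2. ELFN2, a neuronal transmembrane protein gene on chromosome 22, had 79.3% of 255.8 kb of EZH2 under the mark in 7 domains. CFAP74, a cilia-associated gene, and FIBCD1, a gene for a chitin-binding receptor, had 91.0% of 211.6 kb and 93.5% of 205.6 kb. SSBP3 had 72.6% of 208 kb. The 298.8 kb domain at the predicted gene LOC124901483 on chromosome 6 had 36.7% under the mark in 6 pieces. In the 214.4 kb domain at TNP2, a sperm chromatin protein gene on chromosome 16, the mark covered 14.2% and left the gene start itself with EZH2 only. The share of a wide EZH2 domain that carried the mark thus ran from 14.2% to 97.3% among these 8.

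**Figure D3:**
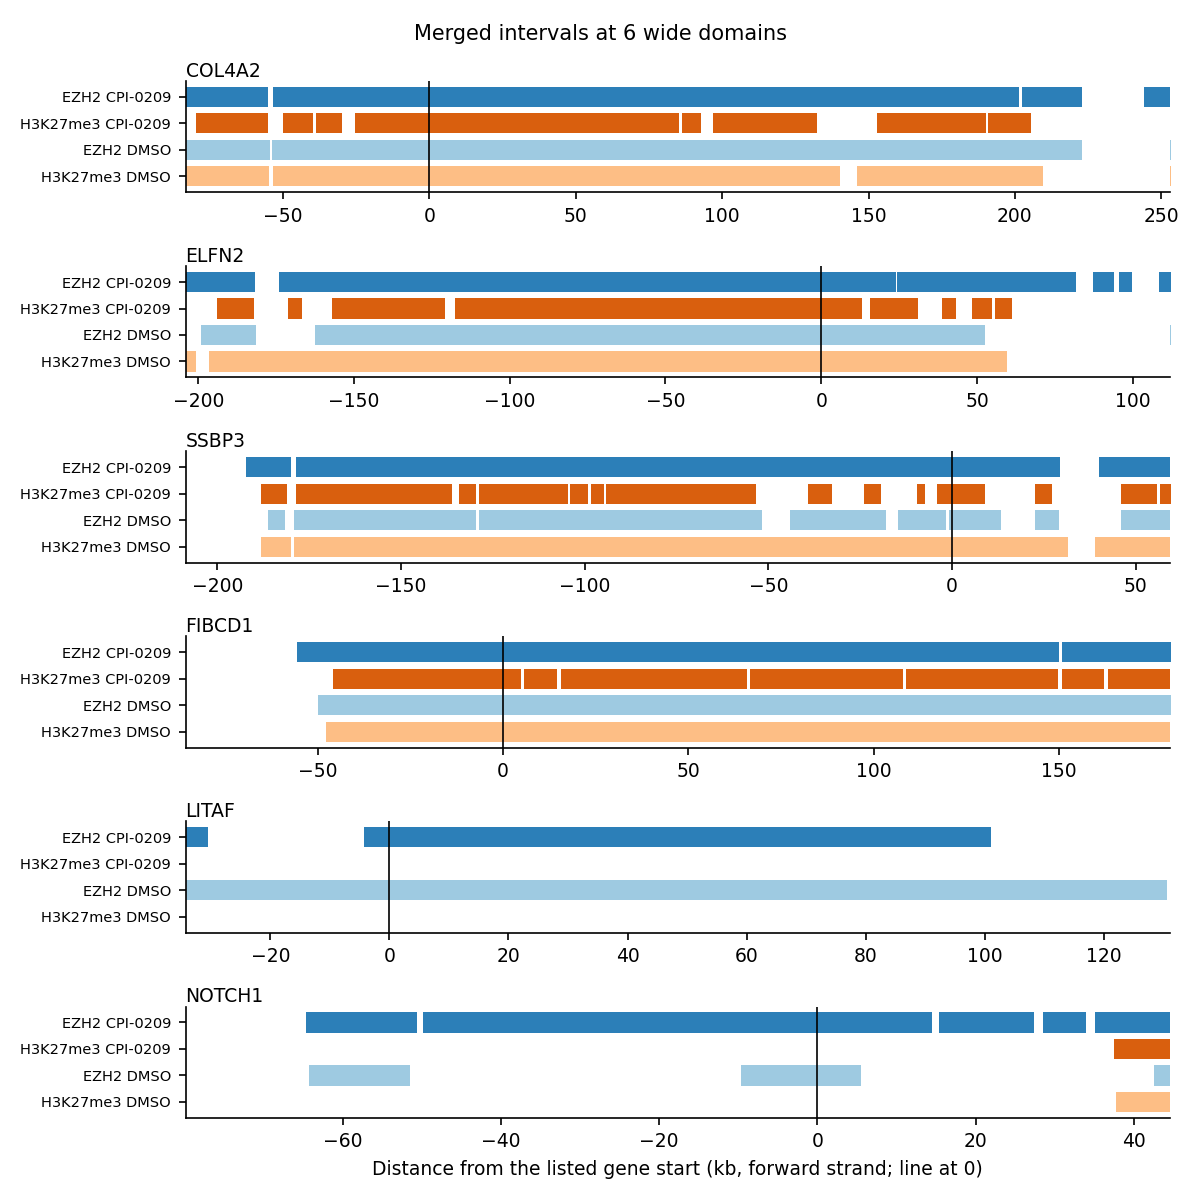
Merged intervals of the 4 lists (rows) at 6 wide domains named for the gene whose start is at 0, with distance from that start in kb on the x axis. At SSBP3 and FIBCD1 the H3K27me3 pieces of CPI-0209 cells in the domain at the gene start lie within EZH2, at COL4A2 and ELFN2 they do so but for 1 and 0.2 kb across a gap in EZH2, and at LITAF and NOTCH1 the EZH2 domain at the gene start holds no H3K27me3 interval.

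Some wide EZH2 domains were almost wholly under the mark. At TBX21, which encodes the T cell transcription factor T-bet, a 46.2 kb EZH2 domain (chr17:47701001-47747200) lay entirely under H3K27me3. The same held for IL2RA, a subunit of the interleukin 2 receptor (27.8 kb), MYH6, a cardiac myosin heavy chain (24.4 kb), ITM2C (21 kb), TMCC2 (20.4 kb) and the predicted gene LOC105370092 (43.6 kb). GALNT9, a glycosyltransferase gene, had 99.7% of 63.4 kb under the mark, and SLC6A18, an amino acid transporter gene, had 99.1% of 92 kb.

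The widest EZH2 domains with no H3K27me3 at a gene start were narrower than the widest with both. LITAF, which encodes a late endosome protein, lay in 105.4 kb of EZH2 (chr16:11583201-11688600). FLOT1, for the membrane raft protein flotillin, lay in 95.6 kb on chromosome 6. LOC400499 had 83.2 kb, EMP2, an epithelial membrane protein gene, 68.2 kb, and NOTCH1 64.4 kb (chr9:136496201-136560600). CFAP119 (54.6 kb), PPP4C, a phosphatase catalytic subunit gene (53.2 kb), and SLC2A1, the gene for the glucose transporter GLUT1 (52.8 kb), completed the 8. At 7 of these 8 genes the start had EZH2 only in DMSO cells too, and at CFAP119 it had neither. Over all genes, 4800 of the 8315 starts with EZH2 only had EZH2 only in DMSO cells. H3K27me3-only domains at gene starts were small. The widest were at C16orf82 (8.2 kb), KRT82 (8 kb), PAX4 (7.8 kb), TAC3, the neurokinin B precursor gene (5.4 kb), and SCGB1D1, a secretoglobin gene (5 kb). FAM240A (4.6 kb), ATP6V0A4 (4.6 kb) and UGT3A2 (4.4 kb) followed. All 8 starts had H3K27me3 only in DMSO cells, as did 37 of all 45 starts with H3K27me3 only.

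Gene content was read over 22 chromosomes, since no start on chromosome 8 was used here. EZH2-only domains held a protein-coding gene start in 42.5% of 15553 cases (41.7 to 43.3%), domains with both in 24.4% of 10205 (23.6 to 25.2%) and H3K27me3-only domains in 2.18% of 1101 (1.40 to 3.23%). Intergenic domains, outside any protein-coding gene record, made up 26.7%, 37.3% and 56.8%. Among domains of 2 to 5 kb the order was the same, with a start in 45.8%, 24.9% and 2.35%. Per Mb, EZH2-only domains held 113 starts, domains with both 18.7 and H3K27me3-only domains 6.92.

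At gene starts EZH2 without the mark was the most frequent class in the merged lists. A gene was placed by the intervals that met the 2 kb either side of its listed start. Of 15808 protein-coding genes with a listed start, 8315 (52.6%) had EZH2 only, 2676 (16.9%) had both, 45 (0.285%) had H3K27me3 only and 4772 (30.2%) had neither. In DMSO cells 5214 had EZH2 only, 2804 both, 1068 H3K27me3 only and 6722 neither. Of the 2676 starts with both, 2359 had both in DMSO cells and 247 had H3K27me3 only. Of the 8315 starts with EZH2 only, 4800 had EZH2 only in DMSO cells and 2766 had neither. Starts with both lay in wider EZH2 domains, with a median of 9.8 kb (quartiles 5.4 and 23.4 kb) against 3 kb (2 and 5 kb) for EZH2 only. Inside EZH2 domains that held the mark, 2343 of 2876 gene starts (81.5%, 80.0 to 82.9%) lay under it. The mark covered 67.8% of the length of all EZH2 domains that held it, with or without a gene start. Its cover of only the domains with a start was not taken. EZH2 of both sets was present at 2347 of the 2676 starts with both and at 2722 of the 8315 with EZH2 only. For the 4166 genes with no listed start both ends of the gene record were scored, and 525 (12.6%) had both at both ends, 525 (12.6%) EZH2 only, 1 (0.024%) H3K27me3 only, 1262 (30.3%) neither and 1853 (44.5%) ends of different classes.

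These counts depended on the lists taken. Between the first sets 2842 of the 15808 starts had EZH2 only, 2357 had both and 361 had H3K27me3 only, so most had neither. Over stretches called in both sets 4533 had EZH2 only, 531 had both and 1 had H3K27me3 only, and most again had neither. Between the second sets 534 starts had both and 1 had H3K27me3 only. With the shortened EZH2 list 640 starts had EZH2 only, 1064 had both and 1657 had H3K27me3 only, so that the order of the classes turned.

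The promoter sequences of the classes differed in CG content. Of the 4 shown above, COL4A2 and NOTCH1 lie above the upper quartile of their class, and their order is the reverse of the class medians. The median promoter of 300 bases held 23 CG dinucleotides (quartiles 11 and 34) where both were called, 27 (19 and 35) with EZH2 only, 4 (3 and 7) with H3K27me3 only and 6 (2 and 18) with neither. The motif searched was CG, which reads the same on both strands, and 65.3% of all 15808 promoters held 15 or more. The share with 15 or more was 84.9% (84.2 to 85.7%) at EZH2-only starts, 67.9% (66.1 to 69.7%) at starts with both and 13.3% (5.05 to 26.8%) at H3K27me3-only starts. Among the 6826 promoters with 25 or more CG, 71.5% had EZH2 only and 18.4% had both. Among the 2619 with 4 or fewer, 11.4% had EZH2 only, 7.83% had both and 79.7% had neither.

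Most developmental regulators had both EZH2 and the mark, in CPI-0209 and in DMSO cells. Among HOX genes, the clustered regulators of body axis patterning, 20 of 20 with a listed start had both, against 16.9% of all genes, and the other 19 had both at both ends. In DMSO cells the HOX counts were 20 and 19 as well, and 17.7% of all genes had both. HOXA10, HOXA11, HOXA13 and HOXA2 lay in the HOXA cluster, where 1 EZH2 domain covered the whole span from first to last gene (chr7:27092993-27200091) and the mark covered 93.7% of it. EZH2 and the mark covered 74.5% and 61.3% of the HOXB span, 99.1% and 94.7% of HOXC, and 92.5% and 66.8% of HOXD, where the mark lay in 13 domains. The second H3K27me3 set covered 60.3% of HOXA, 22.95% of HOXB, 34.1% of HOXC and 6.37% of HOXD, and with it 8 of the 20 listed starts had both. The clusters also hold 6 microRNA genes, MIR10A, MIR10B, MIR196A1, MIR196A2, MIR196B and MIR615. Scored at the hairpin midpoint all had both, against 154 of all 1558 hairpins (9.88%). They lie inside the cluster spans, so their calls are not independent of those of the HOX genes.

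The miR-196 arms of these clusters are shown because they share a seed across 3 clusters, with bases 2 to 8 in capitals. The sequences are those of RefSeq on GRCh38.p14. MIR196B lies in HOXA on the minus strand (mature arm chr7:27169528-27169549), MIR196A2 in HOXC on the plus strand (chr12:53991762-53991783) and MIR196A1 in HOXB on the minus strand (chr17:48632532-48632553).
hsa-miR-196b-5p: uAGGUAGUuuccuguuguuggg
hsa-miR-196a-5p: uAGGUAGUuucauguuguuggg
MIR196A1 and MIR196A2 give the same arm, and both sequences have the seed AGGUAGU.

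Of 75 other developmental transcription factors with a listed start, 63 had both (84.0%, 73.7 to 91.4%), 10 EZH2 only and 2 neither. PAX2 lay in 28.0 kb of EZH2 with 82.1% under the mark, PAX3 in 26.0 kb with 85.4%, PAX7 in 38.4 kb with 96.9% and PAX6 in 13.2 kb with 30.3%. These encode paired-box regulators of organ, muscle, neural crest and eye development. PAX8, GATA2, LHX4 and ISL2 had EZH2 only, in domains of 4.0, 18.6, 5.2 and 7.0 kb. The second H3K27me3 set was present at 33 of the 63 starts with both, against 531 of the 2676 over all genes (19.8%). Among signalling ligands and antagonists 24 of 37 starts had both (64.9%, 47.5 to 79.8%, against 16.9% of all genes) and 10 EZH2 only. The ligand genes WNT1, WNT2, WNT3 and WNT3A had 76.7%, 74.2%, 100% and 58.5% of their EZH2 under the mark, and WNT7A and WNT9A had EZH2 only. Among neuronal and neuroendocrine genes 21 of 26 had both (80.8%, 60.6 to 93.4%), among them the proneural factors NEUROD1 (59.5%), NEUROD2 (49.1%), NEUROG1 (71.2%) and NEUROG2 (81.4%), and ENO2, a neuronal enolase gene, had EZH2 only. In DMSO cells nearly the same numbers had both, with 64 of the 75 developmental, 24 of the 37 signalling and 20 of the 26 neuronal starts.

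Tissue markers were more mixed, and are set here against 16.9% with both, 52.6% with EZH2 only and 30.2% with neither over all starts. Among urothelial luminal genes 4 of 16 had both (25%, 7.27 to 52.4%), 6 had EZH2 only (37.5%) and 5 neither, so that the limits of the first share hold that of all genes. The luminal transcription factor genes GATA3 and FOXA1 had 38.8% of 34.0 kb and 74.5% of 21.2 kb of EZH2 under the mark, and the receptor gene FGFR3 had 27.4% of 57.0 kb. KRT8, a keratin gene, and PPARG, a nuclear receptor gene, had EZH2 only in 3.6 and 3.0 kb. UPK1A, which encodes the urothelial membrane protein uroplakin 1A, was the sole member with H3K27me3 only at its start, although its H3K27me3 domain of 5.8 kb met 4.4 kb of EZH2 outside the start window. Mesenchymal genes had both at 8 of 15 starts (53.3%, 26.6 to 78.7%), VIM, TWIST2, ZEB1 and ZEB2 among them, and muscle genes at 5 of 8 (62.5%, 24.5 to 91.5%). Blood and liver genes had both at 6 of 18 starts (33.3%, 13.3 to 59.0%) and keratinocyte genes at 1 of 17 (5.88%, 0.149 to 28.7%), and the limits of both hold the share of all genes. Of the 17 keratinocyte starts 12 had neither. In DMSO cells both were called at 5 urothelial, 7 mesenchymal, 4 muscle, 7 blood and liver and 1 keratinocyte starts.

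The genes of the Polycomb complexes themselves had EZH2 only at about the share of all genes (52.6%). Of 14 genes for PRC2 subunits and H3K27 demethylases, 8 had EZH2 only (57.1%, 28.9 to 82.3%), among them EZH1, EZH2, EED and RBBP4, and 5 had neither. KDM6B, an H3K27 demethylase gene, was the 1 with both, with 4.2 kb of its 8.4 kb of EZH2 under the mark. Of 16 PRC1 genes 10 had EZH2 only (62.5%, 35.4 to 84.8%) and 4 had both (25%, against 16.9% of all genes), which were BMI1, PCGF5, CBX7 and PHC2. The PRC1 genes CBX2 and CBX8, scored at both ends, shared 46.0 kb of EZH2 with 87.4% under the mark. In DMSO cells both were called at 1 of the 14 and at 3 of the 16 starts.

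Ligands of natural killer cell receptors were split, with both at 4 of 12 starts (33.3%, 9.92 to 65.1%, against 16.9% of all genes), and also at 4 in DMSO cells. MICB had 56.2% of 61.6 kb of EZH2 under the mark, ULBP1 had 4.2 kb of 5.6 kb, and ULBP2 and RAET1L had 72.2% and 39.5% of 7.2 and 7.6 kb. MICA (13.2 kb), ULBP3 (9.4 kb), RAET1G (5.4 kb), NCR3LG1 (5.4 kb) and NECTIN2 (2.6 kb) had EZH2 only, and RAET1E, PVR and CD48 had neither. Reads from the closely related ULBP and RAET1 genes, or from MICA and MICB, may map to more than 1 copy. Among antigen presentation and interferon genes 2 of 31 starts had both (6.45%, 0.791 to 21.4%), 13 EZH2 only (41.9%), HLA-B, HLA-C, B2M and TAP1 among them, and 16 neither. The limits of the first share hold the 16.9% of all genes. Of 18 tumour suppressor and cell cycle inhibitor starts, 12 had EZH2 only (66.7%, 41.0 to 86.7%, against 52.6% of all genes), among them CDKN1A, CDKN1B, CDKN2A and CDKN2B. The 5 with both (27.8%, against 16.9%) included RUNX3, with 77.3% of 28.2 kb, and DAB2IP, with 64.9% of 81.0 kb. In DMSO cells both were called at 3 antigen presentation and interferon starts and at 4 tumour suppressor and cell cycle inhibitor starts.

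Most housekeeping genes carried EZH2 calls without the mark, in CPI-0209 and in DMSO cells. Of 29 housekeeping starts 28 had EZH2 only in CPI-0209 cells, against 52.6% of all genes. In DMSO cells most of the 29 had EZH2 only too, GAPDH, TBP and ACTG1 among them, against 33.0% of all genes. HPRT1 had neither there. Of the 28, 17 were called in both EZH2 sets (60.7%), against 2722 of all 8315 starts with EZH2 only (32.7%). The EZH2 domains were narrow at HPRT1 (1.6 kb), TBP (3.2 kb) and GAPDH (6.8 kb) and wider at ACTG1 (11 kb). PKM, the gene for pyruvate kinase, had both, with 0.6 kb of the mark in 7.0 kb of EZH2. Ribosomal protein genes had EZH2 only at 54 of 66 starts (81.8%, 70.4 to 90.2%) and both at 2. Replication-dependent histone genes had EZH2 only at 43 of 64 starts (67.2%, 54.3 to 78.4%). In DMSO cells both were called at 1 housekeeping, 3 ribosomal protein and 2 histone starts. The 12.2 kb floor of the shortened EZH2 list left EZH2 only at 3 housekeeping starts.

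Large gene families are set against the same shares of all starts, 16.9% with both, 52.6% with EZH2 only and 30.2% with neither. Of 312 olfactory receptor starts 298 had neither and 6 had both (1.92%). Zinc finger genes named ZNF had EZH2 only at 254 of 430 starts (59.1%, near the share of all genes) and both at 27 (6.28%, 4.178 to 9.004%). Clustered protocadherins, cell adhesion genes of neurons, had both at 18 of 47 starts (38.3%, 24.5 to 53.6%) and EZH2 only at 11 (23.4%). Potassium channel genes had both at 34 of 71 (47.9%, 35.9 to 60.1%) and EZH2 only at 13 (18.3%). In DMSO cells both were called at 7 olfactory receptor, 30 ZNF, 21 protocadherin and 33 potassium channel starts.

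**Figure D4:**
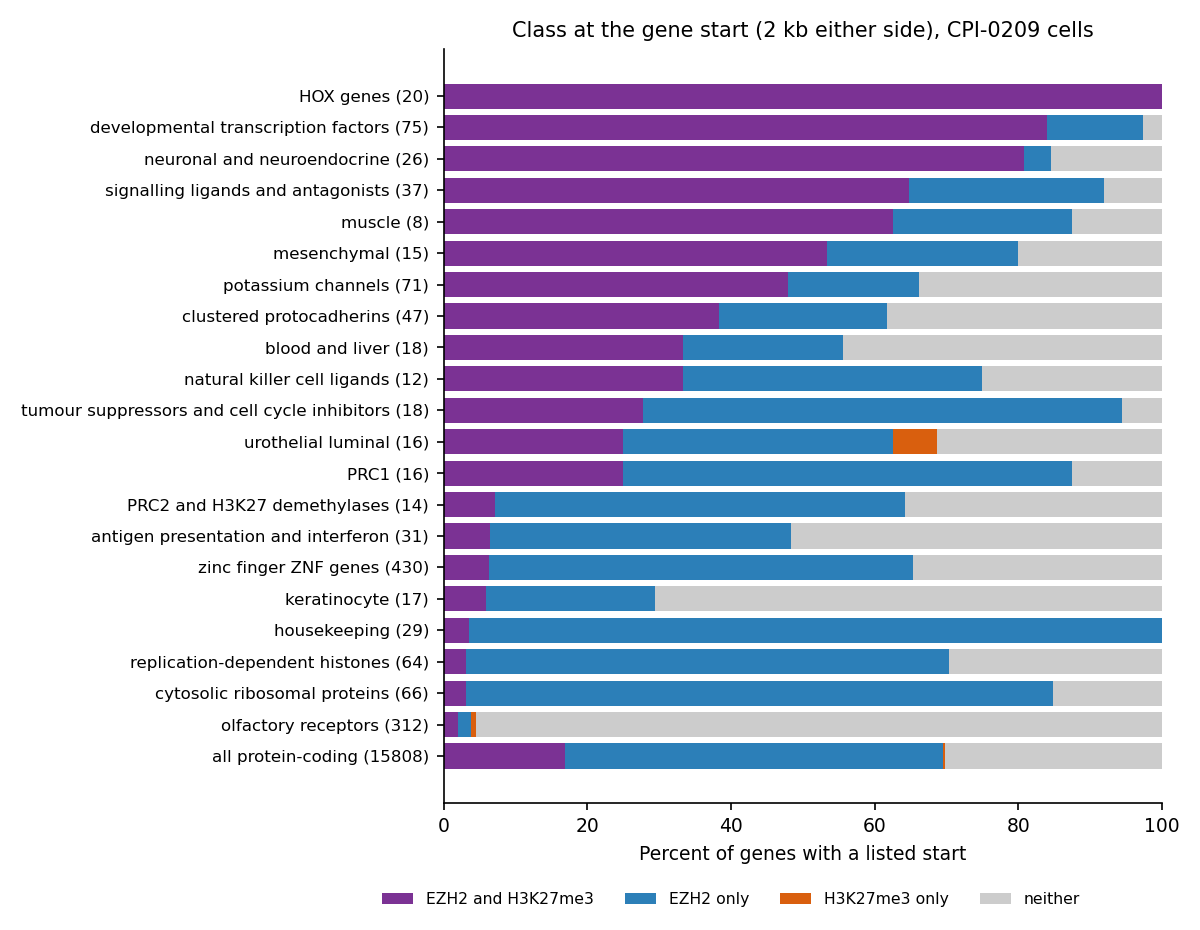
Percent of genes with a listed start (x axis) in each class at the start with 2 kb either side, for 21 gene lists and all 15808 protein-coding genes (number of genes in brackets), in CPI-0209 cells. HOX genes are wholly in the class with both (20 of 20), housekeeping genes almost wholly in EZH2 only (28 of 29), and olfactory receptors mostly in neither (298 of 312).

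Every chromosome from 1 to 22 and X held all 3 classes. The share of EZH2 domains with H3K27me3 was lowest on X (33.8%, 30.0 to 37.9%) and chromosome 19 (34.9%, 32.6 to 37.2%), and highest on chromosomes 20 (50.1%, 46.8 to 53.4%) and 21 (49.1%, 43.7 to 54.6%). By length, 39.4% of EZH2 on chromosome 19 and 39.7% on X lay under the mark, against 60.7% on chromosome 21. In DMSO cells these shares were 74.1%, 71.9% and 85.6%, against 72.2% over the whole list. EZH2 domains of CPI-0209 cells also differed in size between chromosomes. There were 582 over 2.10 Mb on X, 1708 over 9.15 Mb on chromosome 19 and 930 over 13.2 Mb on chromosome 20. The chromosomes were not compared at equal EZH2 width. The mark beyond EZH2 was 15.1% of its length on X, 14.4% on chromosome 15 and 14.1% on chromosome 19, and it was lowest on chromosome 9 (3.89%), chromosome 13 (4.34%) and chromosome 20 (4.54%). In DMSO cells X and chromosome 15 also had the highest shares beyond EZH2, 75.7% and 72.0%, while chromosome 19, with 54.7%, lay below the 55.7% of the whole list. Between chromosomes these shares have no replicate spread to be set against.

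**Figure D5:**
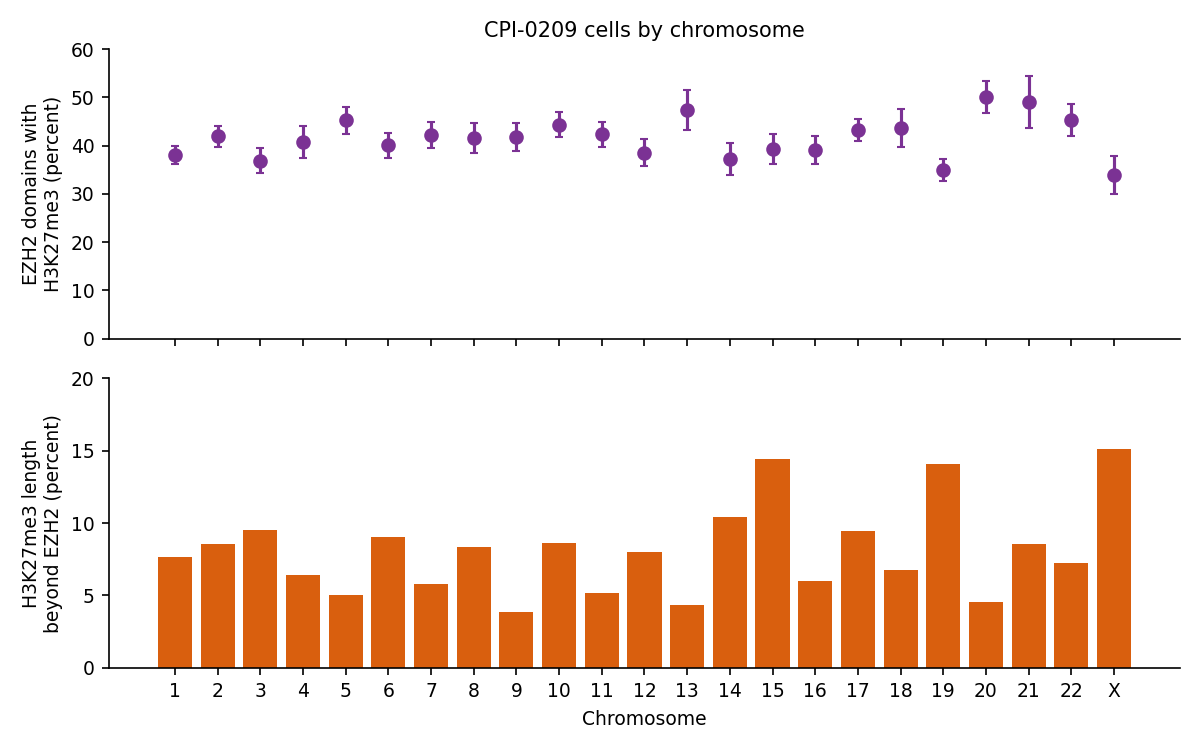
Top, percent of EZH2 domains with H3K27me3 on each chromosome (x axis) in CPI-0209 cells, with exact 95% binomial limits. Bottom, percent of H3K27me3 length beyond EZH2. X and chromosome 19 are lowest above (33.8% and 34.9%) and among the 3 highest below (15.1% and 14.1%).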

How the data were processed

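ChIP-seq for EZH2 and H3K27me3 was run on HT1376 cells given DMSO or CPI-0209, 1 library per group. The submitters' processing notes name BWA, SICER and hg38 without version or role. Per the file headers, the deposited lists give only a chromosome, a start and an end per interval, with no score or count, so depth is unknown. All 128040 intervals lie on a 200 bp grid. Starts count from 0 and ends are inclusive; coordinates are printed from 1. Each list holds 2 sets, which were merged and also taken apart, a choice added after seeing the data.

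Interval overlaps were computed with Python 3.11.15, numpy 2.4.6 and pandas 2.3.3, with limits from scipy 1.17.1. On simulated intervals 4600 of 4600 joined domains were recovered. Genes and promoters came from RefSeq tables of GRCh38.p14, with 15808 of 19974 protein-coding genes having a listed start (the most upstream one). All 1710 genes of the 21 lists matched, 1 by an older symbol. Named genes were the 8 widest domains per class holding a gene start, the 8 longest stretches beyond EZH2, the 8 EZH2 domains of 20 kb or wider with the largest and smallest share under H3K27me3, the first 4 list members per class and all members of lists of 12 or fewer. CBX2, CBX8 and the HOX cluster spans and microRNAs were chosen after their values were seen. The members and lists were chosen with earlier results of these data known. No test was run, since each group has 1 library.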

Additional observations from a re-analysis of the deposited data

How the results depend on the processing

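No paired analysis was possible because each group has 1 library and the labels give no replicate numbers. Leaving out X moved none of the 8 domain results beyond its counting limits (the gene start counts were not run without X), and changing the gene window to 0 or 5 kb moved none of the 5 gene counts by 1.5 times. The share of EZH2 domains with H3K27me3 was 30.9% at 50% overlap, 37.7% with gaps under 5 kb joined, 13.3% over stretches called in both sets, 43.7% without intervals under 2 kb, 84.0% with the EZH2 list shortened to the H3K27me3 length (6963 intervals of 12.2 kb or wider), 67.3% for the first sets and 7.11% for the second. In that order, the share of H3K27me3 domains with EZH2 was 90.4%, 92.0%, 98.5%, 93.2%, 41.8%, 74.9% and 98.3%. The median width of EZH2 domains with the mark was 11 kb with gaps joined, 12.8 kb for stretches in both sets, 9.2 kb without narrow intervals, 20.8 kb for the shortened list and 7.6 and 17.6 kb for the first and second sets. Without the mark it was 3.6 kb at 50% overlap, 4 kb for stretches in both sets, without narrow intervals and for the second sets, and 15.6 kb for the shortened list. The median percent under the mark was 76.7% at 50% overlap, 63.6% with gaps joined, 36.1% for stretches in both sets, 69.6% without narrow intervals, 72.3% for the shortened list and 78.7% and 28.1% for the sets. The share of H3K27me3 length beyond EZH2 was 6.33% with gaps joined, 1.51% for stretches in both sets, 7.41% without narrow intervals, 37.4% for the shortened list and 22.1% and 1.34% for the sets. H3K27me3 domains wholly within EZH2 were 73.6% with gaps joined, 93.5% for stretches in both sets, 80.0% for the shortened list and 53.9% and 94.6% for the sets. The mark reached neither edge in 41.6% at 50% overlap, 56.6% with gaps joined, 82.5% for stretches in both sets, 55.0% for the shortened list and 31.2% and 86.7% for the sets. Gene starts with both numbered 531 for stretches in both sets, 1064 for the shortened list and 534 for the second sets. Starts with EZH2 only numbered 4533, 640 and, for the first sets, 2842. Starts with H3K27me3 only numbered 1 for stretches in both sets, 1657 for the shortened list and 361 and 1 for the sets. In every setting above but the shortened EZH2 list, the share of H3K27me3 domains with EZH2 was higher than that of EZH2 domains with H3K27me3; the shortened list turned this order. The causes of these shifts were not tested.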

Other observations

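Most microRNA hairpins met neither EZH2 nor the mark. Of 1558 hairpins in the RefSeq table, scored at their midpoint, 154 (9.88%, 8.45 to 11.5%) met both, 297 (19.1%) EZH2 only, 12 (0.770%) H3K27me3 only and 1095 (70.3%) neither. The 6 hairpins of the HOX clusters were among the 154.

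Of the 8 widest EZH2-only domains at gene starts, those at LITAF, LOC400499, EMP2, CFAP119 and PPP4C lie on chromosome 16, which held 664 of the 16146 EZH2-only domains. LITAF, LOC400499 and EMP2 lie near each other (chr16:11583201-11688600, chr16:11473801-11557000 and chr16:10555201-10623400), and the 214.4 kb TNP2 domain with 14.2% of its EZH2 under the mark lies between them. The LITAF, LOC400499 and EMP2 starts had EZH2 only in DMSO cells as well.

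H3K27me3 of the second set lay in wide EZH2 domains. EZH2 domains with H3K27me3 of both sets numbered 1846, with a median of 23.2 kb, against 7.2 kb for the 9397 with H3K27me3 of the first set only. Of the 3015 second-set intervals, 2937 (97.4%, 96.8 to 97.9%) lay wholly within EZH2. In domains with H3K27me3 of both sets the median share of EZH2 under the second set was 22.8%.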
